A study of Mus musculus with 30 samples.

Results

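CD11b+ cells taken from 4T1 tumors of BALB/c mice were compared with CD11b+ cells from the spleens of healthy BALB/c mice. All 3 arrays labelled as BALB/c 4T1 tumor infiltrate and all 3 arrays labelled as healthy BALB/c spleen entered, which is 6 of the 30 arrays, or 2 of the 10 groups. Every probe set paired with a single gene symbol was kept, 34958 of 45101, and these stood for 18194 genes. The series profiles CD11b+ cells, enriched with magnetic beads, on Affymetrix MOE430 2.0 arrays, from healthy spleen, tumor infiltrate, the spleen of tumor-bearing mice and bone marrow. Its design text names the healthy spleen cells as the reference for the tumor-induced cells, which it calls myeloid-derived suppressor cells (MDSC). The 4T1 group is labelled only by strain (BALB/c), tissue (tumor infiltrate) and condition (tumor-bearing), and the spleen group by strain (BALB/c), tissue (spleen) and condition (healthy). Age, sex, tumor site, time after injection and number of mice per array are not given in the sources used here. Other infiltrates serve below as comparison: C26-GM tumors in BALB/c mice, and EL-4 and MCA203 tumors in C57BL/6 mice with healthy C57BL/6 spleen as their reference. The C57BL/6 spleen arrays carry that strain in their title and strain field, while their description names BALB/c.

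CD11b is the alpha chain of the integrin Mac-1, carried by monocytes, macrophages, neutrophils and some dendritic and natural killer (NK) cells. MDSC are such myeloid cells, expanded in tumor-bearing hosts, that restrain T cells, among other means by consuming arginine through arginase or by making nitric oxide, prostaglandins and adenosine. 4T1 is a transplantable mammary carcinoma line of BALB/c origin, known for driving a strong expansion of neutrophils and monocytes in its host. Spleen CD11b+ cells differ from tumor cells in organ as well as in health, because the spleen holds its own residents, among them the red pulp macrophages that recycle iron from old red cells.

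Values below are log2 RMA levels, a summary of each probe set's brightness after background correction and normalization, and levels of different genes are not comparable with each other. A log2 change is the mean of the 4T1 arrays minus the mean of the spleen arrays, with its standard error (SE) from limma's model over all 30 arrays. A gene is said to have risen or fallen only where its adjusted p was below 0.05 and its change at least 2-fold, that is at least 1 on the log2 scale. By that rule 2231 of 18194 genes changed (12.3%), of which 1242 rose (6.83% of genes tested) and 989 fell (5.44%), and the median change over all genes was -0.01. The 3 arrays of one group did not overlap with the 3 of the other for 53.2% of genes, so that separation alone is common here. Centring each array on its median turned the split to 1081 rises and 1138 falls, and centring on 8 housekeeping genes to 1317 rises and 934 falls. Arrays of the same group correlated at 0.993 to 0.996 and arrays of different groups at 0.933 to 0.943, as a description across genes. The labels do not say whether the arrays of a group came from separate mice, so the spread behind the p-values may be technical. That spread is pooled for each gene over the arrays within all 10 groups. An SE can therefore be wider or narrower than the values of the compared arrays alone would give. An exact permutation test of 3 arrays against 3 cannot go below p = 0.10, so only the model's p-values are given. Some changed genes named below have another probe set that lay within 0.5 of 0 on the log2 scale; beside those said at their values, these are, among rises, Ctsl, Cxcl11, Elovl6, Fcgr2b, Gas6, Inhba, Lif, Mcm6, Osmr, Slc16a1 and Tcf4 and, among falls, Acta2, Cebpd, Icosl, Ptger3, Scd1 and Tfrc. Other named genes can still have a probe set farther from 0 that did not pass. Tumor and organ cannot be told apart in this comparison, nor can fewer cells of a type be told apart from less RNA per cell.

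The cells of both groups carried the defining myeloid markers, most of them at a lower level in the 4T1 arrays. Itgam, the gene of CD11b itself, read 10.18, 10.61 and 10.26 in the 4T1 arrays and 9.98, 10.01 and 9.81 in the spleen arrays, and although these values do not overlap the change of 0.42 ± 0.40 missed the test (adjusted p = 0.58). Lyz2, the lysozyme of macrophages and neutrophils, read 13.66, 13.64 and 13.46 in the 4T1 arrays and 13.68, 13.68 and 13.58 in the spleen arrays, and the groups overlapped. Of the 10 identity markers only Ptprc, the pan-leukocyte marker CD45, passed the test: it read 11.85, 12 and 11.77 in the 4T1 arrays and 12.98, 13.17 and 13.06 in the spleen arrays, a fall of 1.20 on the log2 scale (SE 0.11). Its other probe set fell by 2.62. In 7 of the 10 every 4T1 array lay below every spleen array and in 2 above, where 53.2% of all genes separated either way. The median of the 10 was -0.49 against -0.01 over all genes, and leaving out 4T1 replicate 2 or spleen replicate 3 gave 2 falls in place of 1. Their summed level lay between 15.25 and 15.41 (log2) in the 4T1 arrays and between 15.77 and 15.81 in the spleen arrays.

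Markers of other cells moved strongly between the groups, and every result below stands beside them. Epithelial and stromal markers were far higher in the 4T1 arrays. Of 24 measured epithelial and mammary tumor markers, 14 rose and none fell (median 1.72), and their summed level was 12.47 to 13.11 in 4T1 arrays against 9.88 to 10 in spleen arrays. Krt8, a keratin of simple epithelium, read 10.98, 9.90 and 10.71 in the 4T1 arrays and 4.40, 4.63 and 4.70 in the spleen arrays. Its partner keratin Krt18 read 11.14, 10.56 and 11.29 in the 4T1 arrays and 5.13, 4.83 and 4.98 in the spleen arrays. Cdh1, the epithelial cadherin, read 8.53, 8.38 and 8.52 in the 4T1 arrays and 4.10, 3.87 and 3.74 in the spleen arrays, a change of 4.58 ± 0.47, whereas Epcam read 6.54, 6.48 and 6.38 in the 4T1 arrays and 6.13, 5.91 and 6.12 in the spleen arrays, a change of 0.41 ± 0.28 that missed the test, while its other probe set rose by 3.63. Both keratins were lowest in 4T1 replicate 2, which also had the lowest epithelial sum. The other epithelial genes that rose included the secreted protein Wfdc2 (5.66 ± 0.64), the tight junction gene Cldn4 (3.72 ± 0.48) and the desmosome genes Dsp (3.59 ± 0.53) and Perp (3.48 ± 0.26).

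Among 25 fibroblast and stromal markers 18 rose and 2 fell (median 1.5), with a summed level of 13.58 to 13.83 against 11.94 to 12.56. Col3a1, a fibrillar collagen, read 10.26, 9.65 and 10.11 in the 4T1 arrays and 5.24, 4.67 and 4.03 in the spleen arrays, a change of 5.36 ± 0.52. The fibroblast receptors Pdgfra (0.76 ± 0.26) and Pdgfrb (0.28 ± 0.18) missed the test on the probe sets used, and another probe set of each rose, by 1.82 and 1.39. The 2 falls, Acta2 by 1.03 and Postn by 1.01, were lost without 4T1 replicate 2 or spleen replicate 1 and under housekeeping centring. Endothelial markers were not raised as a group: 1 of 18, Emcn, rose, and their summed levels overlapped, 9.89 to 10.48 against 10.13 to 10.47.

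Lymphocyte markers were lower in the 4T1 arrays. Of 19 B and plasma cell markers 15 fell (median -2.99), with a summed level of 11.74 to 11.85 against 14.26 to 14.54. Ighm, the heavy chain of IgM, read 8.11, 7.88 and 8.13 in the 4T1 arrays and 12.62, 12.52 and 12.78 in the spleen arrays, and Ms4a1, the B cell antigen CD20, fell by 5.03. One of the gene's probe sets put Ighm at 0.23, with no fall. The single rise in that list was Sdc1, the plasma cell antigen syndecan-1, which epithelia also carry, at 8.80, 8.95 and 8.81 in the 4T1 arrays and 4.69, 4.92 and 4.35 in the spleen arrays. NK markers fell in 11 of 15 cases, none rose, and their sum was 8.74 to 8.87 against 11.34 to 11.81. Gzma, a granule protease of killer cells, read 5.45, 4.76 and 5.50 in the 4T1 arrays and 10.70, 10.25 and 10.82 in the spleen arrays, so the groups stood far apart. T cell markers fell in 6 of 15 cases with sums of 9.69 to 9.99 against 10.23 to 10.39, while Il7r rose by 2.03. Mast cell, basophil and eosinophil genes fell in 8 of 18 cases, led by Ccr3 by 4.72 and Prg2 by 4.61, both eosinophil genes. The erythroid and platelet list had 2 rises and 7 falls among 14 genes, and its summed level was higher in 4T1, 11.78 to 11.99 against 11.10 to 11.61. The part of these other cells in the changes of single genes below was not tested. In the plot of summed marker levels the 4T1 arrays lay above the healthy BALB/c spleen arrays for epithelial and stromal genes. For B and NK genes they lay below the spleen arrays. From the other infiltrates they did not stand apart in every one of these lists: NK sums in C26-GM were 8.44 to 8.75.

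**Figure D1:**
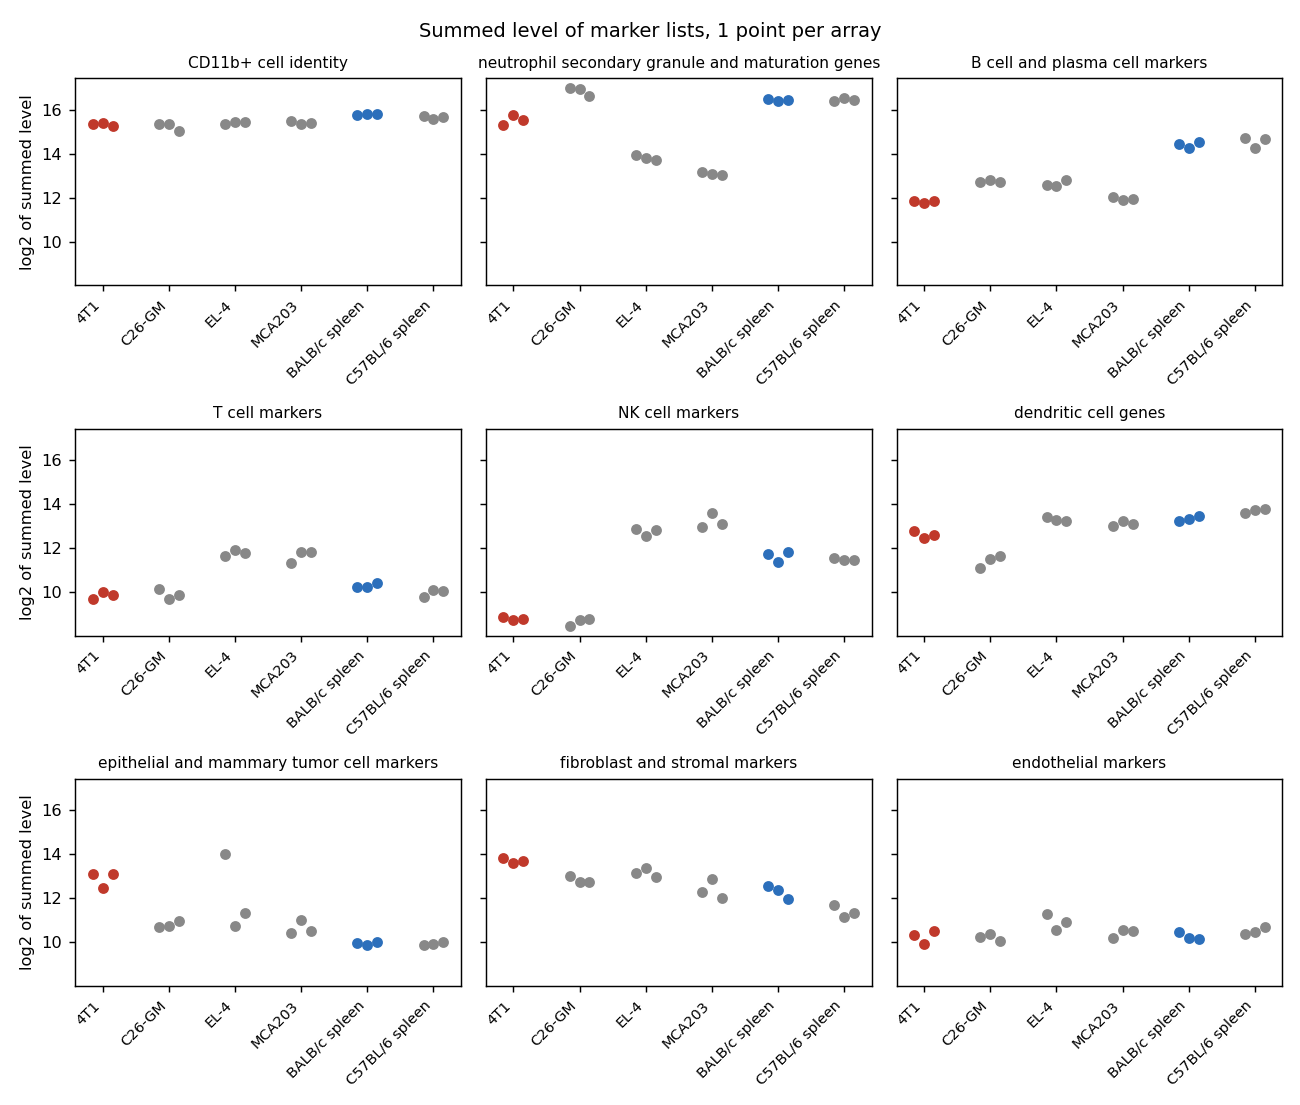
Summed level (log2 of the sum of the members' linear RMA levels) of 9 marker lists in 6 groups, 1 point per array. The 4T1 arrays lie above healthy BALB/c spleen for epithelial (12.47 to 13.11 against 9.88 to 10) and stromal markers and below it for B cell and NK cell markers; EL-4 replicate 1 stands apart from its group in the epithelial sum at 14.01.

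Genes whose arrays did not overlap were ranked by change, with predicted and unnamed transcripts left out. The 10 largest rises were Arg1, Cxcl3, Ccl12, Ccl8, Dab2, Moxd1, Nt5e, Mmp13, Krt18 and Krt8. Arg1, the arginase that splits arginine into ornithine and urea, read 12.67, 12.77 and 12.82 in the 4T1 arrays and 3.90, 4.04 and 3.56 in the spleen arrays. No other gene named here rose as far: the change was 8.92 ± 0.35, or 485.0-fold (adjusted p = 2.1e-16, limma with Benjamini-Hochberg adjustment). Dab2, an endocytic adaptor, read 11.62, 11.69 and 11.52 in the 4T1 arrays and 5.15, 5.03 and 5.51 in the spleen arrays, a 83.0-fold rise with little spread within either group. Moxd1, a copper monooxygenase related to dopamine beta-hydroxylase, read 9.98, 9.0 and 9.88 in the 4T1 arrays and 3.26, 3.43 and 3.37 in the spleen arrays, with 4T1 replicate 2 the lowest of its group. Mmp13, a collagenase, read 10.83, 10.60 and 10.79 in the 4T1 arrays and 4.90, 4.69 and 4.49 in the spleen arrays, and the groups lay 6.04 apart on the log2 scale.

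The 10 largest falls by the same rule were Hpgd, Jchain, Igha, Iglv1, Igkv8-30, Cd5l, H2-Ob, Spic, Gzma and Adgre4. Most are known from other cell types or from spleen residents. Hpgd, which inactivates prostaglandins, read 3.88, 3.61 and 3.45 in the 4T1 arrays and 10.64, 10.67 and 10.78 in the spleen arrays, a 132.0-fold fall on the probe set used, while its other probe set fell by 1.83 on the log2 scale. Jchain, the joining chain of secreted antibodies, read 5.20, 3.65 and 4.71 in the 4T1 arrays and 11.51, 11.24 and 11.52 in the spleen arrays, with the 4T1 arrays more spread than the spleen arrays. H2-Ob, a subunit of the class II chaperone H2-O that B cells use, read 4.76, 3.66 and 4.37 in the 4T1 arrays and 9.65, 9.82 and 9.93 in the spleen arrays, again with no overlap. Adgre4, an adhesion receptor of the F4/80 family, read 6.26, 6.44 and 5.96 in the 4T1 arrays and 11.44, 11.59 and 11.59 in the spleen arrays, a change of -5.32 ± 0.31.

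**Figure D2:**
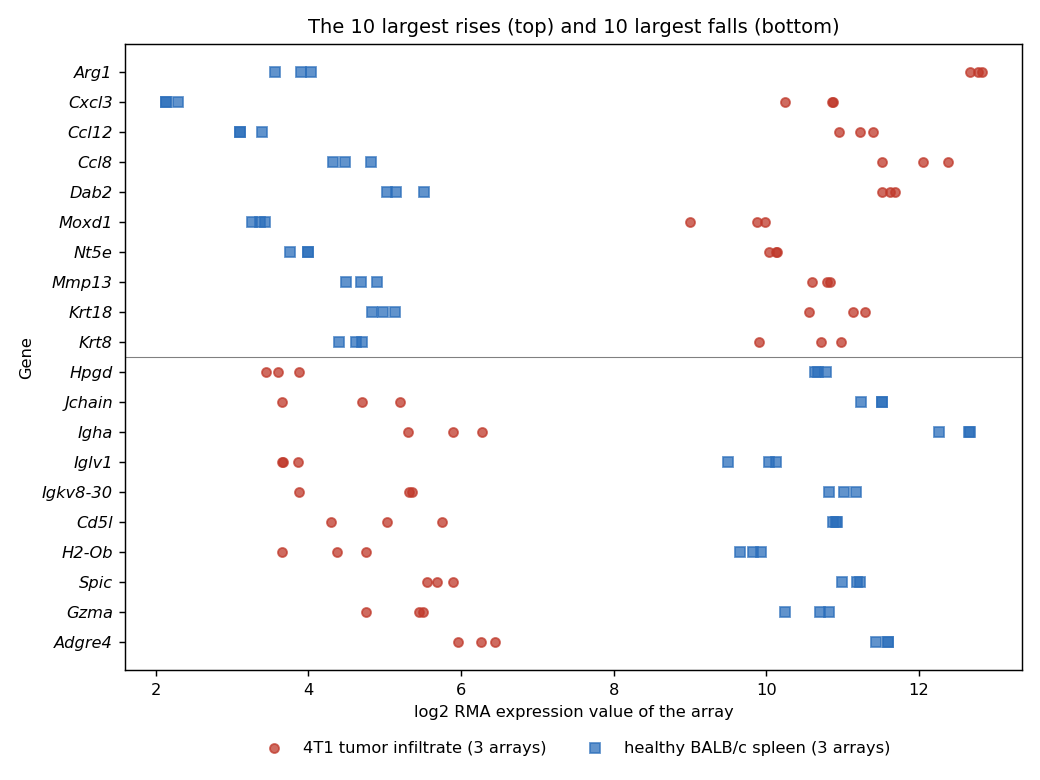
Log2 RMA level of the 10 genes that rose most and the 10 that fell most, 1 point per array (circles 4T1 infiltrate, squares healthy BALB/c spleen, n = 3 each). Predicted and unnamed transcripts were left out. In all 20 genes the arrays of the groups do not overlap, which was part of how they were chosen.

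Low oxygen stabilises the transcription factors HIF-1 and HIF-2, which bind the short element ACGTG beside many genes of sugar breakdown, angiogenesis and collagen maturation. Of 23 measured hypoxia targets 17 rose and none fell (median 1.88), and of 21 glycolysis genes 15 rose and 2 fell (median 1.42), against 6.83% and 5.44% over all genes. Promoters of 40 of these genes were in the RefSeq table (GRCm38.p6, 250 bases before to 50 after the start), and 30 of them held ACGTG on either strand, or 75%. Over all 14453 genes tested that had a promoter in the table the share was 26.1%, and over all 32851 windows 19.6%. ACGTG stood in 12 of 14 hypoxia targets and 11 of 15 glycolysis genes that rose, against 15 of 20 in each whole list. The hypoxia list is made of known targets, so its share describes the choice of genes and no change in these arrays. The 250 bases before the start of Ldha (chr7:46845554-46845803, plus strand) and of Bnip3 (chr7:138909507-138909756, minus strand) are shown as examples, with 5 and 2 matches. The stretch CACGTG holds ACGTG on both strands and so counts as 2 matches. Capitals mark ACGTG read on either strand, and overlapping matches run together. A match is a description of the sequence, not a binding site.
Ldha promoter: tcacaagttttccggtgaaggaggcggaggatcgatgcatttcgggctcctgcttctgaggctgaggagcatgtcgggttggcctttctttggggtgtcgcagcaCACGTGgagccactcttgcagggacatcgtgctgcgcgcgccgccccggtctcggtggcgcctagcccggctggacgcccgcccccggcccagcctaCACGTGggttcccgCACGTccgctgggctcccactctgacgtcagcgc
Bnip3 promoter: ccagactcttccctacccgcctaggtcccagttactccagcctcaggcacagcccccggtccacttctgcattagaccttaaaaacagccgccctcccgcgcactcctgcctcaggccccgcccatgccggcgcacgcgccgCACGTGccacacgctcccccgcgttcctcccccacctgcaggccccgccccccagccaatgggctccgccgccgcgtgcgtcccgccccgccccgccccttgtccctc

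Ldha, the lactate dehydrogenase subunit that makes lactate from pyruvate, read 11.88, 12.13 and 11.99 in the 4T1 arrays and 10.13, 10.05 and 10.23 in the spleen arrays, a change of 1.87 ± 0.13. Bnip3, a receptor that marks mitochondria for removal, read 11.23, 11.66 and 11.31 in the 4T1 arrays and 8.83, 8.73 and 8.58 in the spleen arrays, a change of 2.69 ± 0.26. In both genes every 4T1 array lay above every spleen array. Hilpda, a lipid droplet protein induced by low oxygen, read 10.13, 10.97 and 10.41 in the 4T1 arrays and 6.07, 6.20 and 6.09 in the spleen arrays, with 4T1 replicate 2 the highest. Hilpda changed by 4.38 ± 0.26, a 20.9-fold rise. Enzymes that hydroxylate collagen rose too, Plod2 by 3.98 and P4ha2 by 2.92, as did the oxygen sensor Egln3 by 4.24 and the vasodilator peptide gene Adm by 2.49. The HIF subunits themselves rose, Hif1a by 1.60 and Epas1 by 1.91, although the other probe set of Epas1 gave 0.52 and did not pass. Members that missed the test included Vhl, which tags HIF for destruction (-0.22 ± 0.13), and Ddit4 (-0.67 ± 0.35).

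Along glycolysis the rises included several enzymes and the carriers that export lactate. Aldoc, an aldolase, read 9.24, 9.22 and 9.26 in the 4T1 arrays and 4.78, 5.34 and 5.45 in the spleen arrays, a change of 4.05 ± 0.21, the largest of the list. Lower steps rose by smaller amounts, Tpi1 by 2.52, Pgam1 by 2.05 and Pgk1 by 1.66, and the brain-type enolase Eno2 by 3.01. Lactate carriers rose as well, Slc16a1 by 2.35 and Slc16a3 by 1.08; the call on Slc16a3 was lost without any 1 of 3 arrays (4T1 replicate 2, spleen replicate 2 or 3). Slc2a3, a glucose transporter of leukocytes, went the other way at 8.61, 10 and 9.20 in the 4T1 arrays and 10.82, 10.66 and 10.54 in the spleen arrays, with 4T1 replicate 1 the lowest. The 2 falls were Slc2a3 by 1.41 and Pfkfb4 by 1.18; Slc2a3 lost its call when probe sets that can cross-hybridise were dropped. Pfkfb3, which drives the committed step, changed by 1.0 ± 0.38 (adjusted p = 0.051) and stayed just short of the threshold.

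Genes of arginine use rose in 7 of 15 cases and none fell (median 0.65). Beside Arg1 the cationic amino acid transporter Slc7a2 read 8.40, 9.16 and 8.54 in the 4T1 arrays and 4.84, 4.96 and 4.91 in the spleen arrays, a change of 3.80 ± 0.42. Its relative Slc7a1 rose by 1.30, although one of its probe sets gave -0.10. The polyamine enzymes downstream of arginase rose, Odc1 by 1.64 and Srm by 1.20, and so did both creatine enzymes, Gatm by 2.16 and Gamt by 1.11. The second arginase, Arg2, read 9.98, 10.26 and 9.96 in the 4T1 arrays and 10.11, 10.04 and 9.85 in the spleen arrays, and the groups overlapped. Nos2, the inducible nitric oxide synthase that competes for arginine, changed by 0.53 ± 0.29 (adjusted p = 0.23), and Ass1, which rebuilds arginine, by -0.16 ± 0.15; neither passed.

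Chemokines draw leukocytes into tissue, CXC members with a glutamate-leucine-arginine motif mainly neutrophils and many CC members monocytes. Of 14 chemokines in a list of the CXC family and the CX3C member Cx3cl1, 11 rose and 1 fell (median 2.02), and of 14 CC chemokines 10 rose and 1 fell (median 1.74). Cxcl3, a neutrophil attractant, read 10.24, 10.87 and 10.86 in the 4T1 arrays and 2.29, 2.14 and 2.14 in the spleen arrays, a 354.0-fold rise (8.47 ± 0.21 log2). Cxcl2, its neighbour on chromosome 5, read 12.75, 12.88 and 12.73 in the 4T1 arrays and 7.31, 7.46 and 8.20 in the spleen arrays, a change of 5.12 ± 0.37, with spleen replicate 3 the highest of its group. NF-kappaB, a driver of many chemokine genes, binds sequences close to GGGA followed by any 4 bases and CC. This motif stood in 6 of 11 promoters of that list (54.5%), Cx3cl1 included among those without it, and 2 of 8 CC promoters (25%), against 28.4% of all genes tested with a promoter and 20.7% of all windows. A looser form, GGG followed by any 5 bases and CC, contains it and stood in 7 of 11 (63.6%) and 3 of 8 (37.5%) against 66.2%. The sequences before the start of Cxcl2 (chr5:90903649-90903898, plus strand) and Cxcl3 (chr5:90785851-90786100, plus strand) are shown for the element both hold, with the first motif on either strand in capitals. Its 2 matches, 1 on each strand, overlap.
Cxcl2 promoter: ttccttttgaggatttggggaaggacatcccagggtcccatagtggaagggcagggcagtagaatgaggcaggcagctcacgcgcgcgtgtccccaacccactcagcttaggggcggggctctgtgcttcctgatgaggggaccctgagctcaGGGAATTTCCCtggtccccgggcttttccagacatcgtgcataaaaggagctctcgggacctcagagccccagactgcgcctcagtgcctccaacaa
Cxcl3 promoter: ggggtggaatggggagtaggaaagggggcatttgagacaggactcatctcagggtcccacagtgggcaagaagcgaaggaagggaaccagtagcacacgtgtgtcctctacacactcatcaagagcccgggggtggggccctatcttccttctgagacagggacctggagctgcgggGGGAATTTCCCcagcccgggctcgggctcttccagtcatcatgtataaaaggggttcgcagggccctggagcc

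Other CXC members spanned platelet and interferon-induced chemokines. Pf4, platelet factor 4, rose by 3.88, and Cxcl11, which attracts T cells, by 2.76. Cxcl16, a membrane-bound scavenger and chemokine, rose by 2.90, and Cxcl14 by 2.93. Cxcl12, the stromal chemokine that holds leukocytes in marrow and spleen, was the CXC member that fell: it read 5.39, 5.43 and 5.33 in the 4T1 arrays and 8.0, 7.29 and 6.67 in the spleen arrays, with wide spread among spleen arrays, and one of its probe sets gave 0.01. Ccl12 and Ccl8, both of the monocyte attractant group, read 11.40, 10.95 and 11.23 against 3.11, 3.10 and 3.40 and 12.05, 11.51 and 12.38 against 4.48, 4.82 and 4.32 in 4T1 against spleen arrays. Their changes were 7.99 ± 0.36 and 7.44 ± 0.33. The macrophage inflammatory proteins rose less, Ccl3 by 3.42 and Ccl4 by 2.38, and Ccl17, an attractant of regulatory and type 2 T cells, by 2.24. Ccl5, made by T and NK cells among others, read 7.85, 7.27 and 7.66 in the 4T1 arrays and 9.99, 9.82 and 10.24 in the spleen arrays and was the CC member that fell.

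The receptors went mostly the other way, with 2 of 14 higher and 6 lower (median -0.53). Both rises were atypical receptors that do not signal for migration, the Cxcl12 scavenger Ackr3 (2.94 ± 0.35) and Ccrl2 (2.81 ± 0.26). Cxcr2, through which neutrophils answer Cxcl2 and Cxcl3, read 7.64, 8.62 and 8.20 in the 4T1 arrays and 10.71, 10.10 and 10.03 in the spleen arrays, a fall of 2.12. The lymphocyte receptors Ccr6 and Cxcr5 fell by 2.37 and 2.27, beside the lower B cell markers. Ccr7 by 1.32 was a fall lost without 4T1 replicate 2. The monocyte receptors Ccr2 (-0.07 ± 0.28) and Cx3cr1 (0.91 ± 0.23) did not pass.

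Among inflammatory cytokines 10 of 19 rose and 1 fell (median 1.01). Il6 read 9.14, 9.25 and 9.22 in the 4T1 arrays and 4.09, 3.55 and 4.44 in the spleen arrays, a 36.2-fold rise (5.18 ± 0.35 log2). Il1a, the form of interleukin-1 that cells can release on death, read 9.68, 9.88 and 9.40 in the 4T1 arrays and 5.89, 5.57 and 5.81 in the spleen arrays, a change of 3.90 ± 0.18. Il23a, the specific chain of interleukin-23, read 6.44, 6.72 and 6.78 in the 4T1 arrays and 3.77, 3.86 and 3.72 in the spleen arrays, a change of 2.86 ± 0.15. In each the 4T1 arrays stayed clear of the spleen arrays. Relatives of interleukin-6 also rose, Osm by 3.89 and Lif by 2.71, and so did Csf3, the granulocyte growth factor G-CSF, by 2.45. Il1b (0.29 ± 0.26) and Tnf (0.69 ± 0.24), which early inflammation induces, missed the test. Il18, an interleukin-1 relative stored by macrophages, was the fall, by 2.19. Of 19 cytokine receptors 4 rose and 5 fell: the decoy Il1r2 rose by 2.22 and the oncostatin receptor Osmr by 1.76, while Csf3r, the receptor of G-CSF, fell by 2.08 and the interferon gamma receptor chain Ifngr1 by 1.29.

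Genes of alternative activation, the macrophage state induced by interleukin-4 and interleukin-13, rose in 13 of 24 and fell in 3 (median 1.22). The rises include Cdh1 and Fn1, which are also on the epithelial and stromal lists given above. The part of those cells in this count was not tested. Rnase2a, a ribonuclease of the eosinophil-associated family whose older name is Ear11, read 9.40, 9.07 and 9.72 in the 4T1 arrays and 3.99, 4.08 and 3.88 in the spleen arrays, a change of 5.42 ± 0.46. The scavenger receptor Stab1 rose by 4.27, the lectin Mgl2 by 3.41 and the transcription factor Egr2 by 3.24. Chil3, the chitinase-like protein Ym1, fell: it read 7.0, 7.69 and 7.43 in the 4T1 arrays and 10.70, 10.62 and 10.80 in the spleen arrays, a change of -3.34 ± 0.23. Irf4, a factor of the same program, fell by 2.86. Retnla, another classical marker, changed by 0.09 ± 0.51, and the mannose receptor Mrc1 by 0.42 ± 0.31, so neither passed.

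Suppressive surface molecules and small mediators changed gene by gene. Of 18 checkpoint ligands and costimulators 6 rose and 2 fell (median 0.18); the rises included Pdcd1lg2, the ligand PD-L2, by 1.55 and Tnfsf9, the ligand of 4-1BB, by 2.80. The falls were Icosl by 1.41 and Fasl by 1.59. In adenosine handling Nt5e, the ectoenzyme CD73 that makes adenosine from AMP, read 10.03, 10.12 and 10.14 in the 4T1 arrays and 3.76, 4.0 and 3.99 in the spleen arrays, a 72.6-fold rise on the probe set used, while its 3 probe sets ran from 6.18 down to 0.20 on the log2 scale. Entpd1, the ectoenzyme CD39 one step upstream, changed by -0.34 ± 0.20 and missed the test. Ada, which destroys adenosine, read 9.35, 9.19 and 9.27 in the 4T1 arrays and 7.76, 7.62 and 7.80 in the spleen arrays, a change of 1.54 ± 0.37. Dpp4, a surface peptidase that binds adenosine deaminase in humans, fell from 9.42, 9.52 and 9.60 in the spleen arrays to 5.52, 5.05 and 5.50 in the 4T1 arrays. Prostaglandin and leukotriene genes rose in 4 of 24 and fell in 4. The prostaglandin synthase Ptgs2 rose by 3.26, and both of its probe sets rose. Ltc4s, which makes leukotriene C, rose by 2.11 and the prostaglandin importer Slco2a1 by 2.60. The receptors Ptger3 and Ptgir fell by 3.01 and 2.27. The prostaglandin E synthase Ptges changed by 0.94 ± 0.15 and did not pass.

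Growth factors for vessels and epithelium rose in 9 of 22 and fell in 1 (median 0.59). Hbegf and Ereg, ligands of the EGF receptor, rose by 3.33 and 2.39, and the platelet-derived factors Pdgfc and Pdgfa by 2.30 and 1.85. Thbs1, the matrix protein thrombospondin, which restrains angiogenesis and activates latent TGF-beta, rose by 3.65. Igf1, made by resident macrophages among others, read 6.95, 6.61 and 7.24 in the 4T1 arrays and 9.60, 9.55 and 9.59 in the spleen arrays and was the fall (-2.65 ± 0.25). In the TGF-beta family 5 of 15 rose and none fell: Tgfb3 by 3.50, the latency binding protein Ltbp2 by 3.40 and the activin subunit Inhba by 2.74, while Tgfb1 changed by -0.87 ± 0.18. Skil by 1.01 was a rise lost without any 1 of 3 arrays (4T1 replicate 1, spleen replicate 1 or 2).

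Enzymes that cut matrix rose in 15 of 27 and fell in 2 (median 1.35), beside the higher stromal markers given above. Mmp12, the macrophage elastase, read 11.73, 11.87 and 11.83 in the 4T1 arrays and 8.52, 8.60 and 8.69 in the spleen arrays, a change of 3.21 ± 0.19. The stromelysin Mmp3 rose by 3.57, the plasminogen activator Plau by 4.0 and its receptor Plaur by 1.80. The inhibitor Timp1 rose with them, by 3.23. The neutrophil collagenase Mmp8 fell by 1.08, a call lost without 4T1 replicate 1 or spleen replicate 1, and the sheddase Adam19 by 1.79. Ctsk, the cathepsin of bone-resorbing osteoclasts, read 9.42, 10.87 and 9.42 in the 4T1 arrays and 4.69, 4.57 and 4.67 in the spleen arrays, with 4T1 replicate 2 the highest, and changed by 5.26 ± 0.36. The proton pump subunit Atp6v0d2, also an osteoclast gene, rose by 4.07, and Ctsl by 3.09. Over all 25 cathepsins and lysosomal hydrolases 6 rose and 2 fell, and the median was 0.30.

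Red pulp macrophages clear old erythrocytes and return their iron to plasma. None of 27 measured genes of these cells rose and 20 fell, with a median of -1.97. Spic, the transcription factor they depend on, read 5.89, 5.68 and 5.56 in the 4T1 arrays and 11.23, 10.99 and 11.19 in the spleen arrays, a change of -5.43 ± 0.21. Cd5l, a protein they secrete, read 4.30, 5.03 and 5.75 in the 4T1 arrays and 10.93, 10.91 and 10.87 in the spleen arrays, with the 4T1 arrays spread over more than 1 log2 unit and still far below. Slc40a1, the iron exporter ferroportin, read 8.51, 8.80 and 8.75 in the 4T1 arrays and 12.60, 12.76 and 12.34 in the spleen arrays, a change of -3.88 ± 0.28. Scavenger receptors of the compartment fell too, Stab2 by 4.94, Marco by 2.95 and Timd4 by 2.72, and the adhesion molecule Vcam1 by 3.02. Not every gene of the list moved: Cd163 (-0.07 ± 0.44) and Siglec1 (0.03 ± 0.24) missed the test, as did Adgre1, the F4/80 antigen (-0.77 ± 0.20). Maf changed by 0.20 ± 0.32 on the probe set used, and its 6 probe sets ran from 0.60 to -2.12.

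In the wider list of iron and heme handling 7 of 18 fell and 2 rose (median -0.72). Both rises are genes of iron uptake or oxidation that are not on the red pulp list. Cp, the ferroxidase ceruloplasmin, read 10.28, 9.58 and 10.50 in the 4T1 arrays and 5.76, 5.50 and 5.33 in the spleen arrays, a 24.1-fold rise. The metal importer Slc39a14 rose by 3.15. The falls included Slc48a1 by 1.33, Tfrc by 1.14 and Slc11a1 by 1.09, which move heme, transferrin iron and endosomal iron; Hmox1, heme oxygenase, fell by 1.38. Blvrb by 1.03 was a fall lost without 4T1 replicate 2, without spleen replicate 1 and under housekeeping centring. The ferritin heavy chain Fth1 changed by 0.37 ± 0.15.

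Lipid handling and clearance of dying cells were divided. Of 21 genes known from lipid-associated macrophages 9 rose and 4 fell (median 0.58). Msr1, a scavenger receptor for modified lipoproteins, rose by 3.77, the lipid-binding Fabp5 by 2.48 and the cholesterol exporter Abca1 by 1.78. Pparg, the nuclear receptor of fat storage, read 4.27, 4.85 and 4.81 in the 4T1 arrays and 8.48, 8.37 and 8.67 in the spleen arrays, a fall of 3.86. Lpl, the lipase that frees fatty acids from lipoproteins, read 7.33, 7.90 and 7.32 in the 4T1 arrays and 11.10, 10.76 and 10.47 in the spleen arrays, a fall of 3.26. The oxysterol receptor Nr1h3 fell by 1.97. Among 23 efferocytosis and scavenger genes 4 rose and 6 fell; the bridging proteins Gas6 and Mfge8 rose by 2.23 and 1.63, and the receptor Mertk fell by 1.35. Cholesterol and fatty acid synthesis rose in 10 of 21 and fell in 1 (median 0.94): the elongase Elovl6 by 2.34, the desaturase Scd2 by 1.96 and Hmgcs1, an early step of cholesterol synthesis, by 1.31, with Scd1 falling by 1.73.

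Of 18 complement genes 5 rose and 4 fell (median 0.57). C3ar1, the receptor of the anaphylatoxin C3a, read 10.57, 10.83 and 10.61 in the 4T1 arrays and 6.18, 6.10 and 6.06 in the spleen arrays, a change of 4.55 ± 0.29. Factor B, Cfb, of the alternative pathway rose by 1.95 and C1ra of the classical pathway by 2.22. The C1q chains, made by macrophages, were each a little higher without passing, C1qa by 0.70 ± 0.17, C1qb by 0.82 ± 0.23 and C1qc by 0.69 ± 0.21. Cr2, the complement receptor of B cells, fell by 3.49 beside the other B cell markers, and Cd55, which protects cells from complement, by 3.23.

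Many neutrophil genes, among them those of granules laid down during maturation in the marrow, were lower in the 4T1 arrays. Of 24 secondary granule and maturation genes 10 fell and 3 rose (median -0.80), and their summed level was 15.29 to 15.74 against 16.40 to 16.48. Camp, the antimicrobial peptide cathelicidin, read 8.26, 9.10 and 9.57 in the 4T1 arrays and 12.52, 12.45 and 12.63 in the spleen arrays, with 4T1 replicate 1 the lowest and a change of -3.56 ± 0.31. Ngp, the neutrophilic granule protein, read 10.51, 11.38 and 11.42 in the 4T1 arrays and 13.26, 13.06 and 13.36 in the spleen arrays, a change of -2.13 ± 0.38. Lcn2, an iron-trapping lipocalin, changed by -0.72 ± 0.44, S100a8 by -0.57 ± 0.14 and S100a9 by -0.52 ± 0.15; none passed. The rises were Stfa3, a cysteine protease inhibitor (3.06), Il1r2 (2.22) and Trem1, an activating receptor (1.81). None of 11 primary granule genes rose and 7 fell (median -1.39), among them Fcnb by 2.0 and Mpo by 1.70; the fall of Elane by 1.23 was lost without 4T1 replicate 1, spleen replicate 1 or spleen replicate 3.

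Monocyte genes fell in 9 of 17 and rose in 1 (median -1.16). Vcan, a proteoglycan of classical monocytes, rose by 2.64 on the probe set used, and another of its probe sets gave -0.17. Genes of patrolling monocytes fell, Spn by 2.52, Ace by 2.09 and Itgal by 2.08. Dendritic cell genes fell in 12 of 23 and rose in 2 (median -1.29), with sums of 12.46 to 12.75 against 13.22 to 13.46: Cd209a by 3.01, Flt3 by 2.42, Zbtb46 by 2.13 and Batf3 by 2.11. The rises were Ccl22 by 1.23 and Tcf4 by 1.13, and Ccl22 lost its call without 4T1 replicate 1. In class II presentation none of 15 rose and 5 fell. H2-Oa, partner of H2-Ob, read 6.18, 5.89 and 6.28 in the 4T1 arrays and 10.06, 9.94 and 10.21 in the spleen arrays, whereas the presenting chains H2-Aa (-0.55 ± 0.26) and H2-Ab1 (-0.51 ± 0.21) and the invariant chain Cd74 (-0.44 ± 0.15) stayed under the threshold.

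Interferon targets were followed in separate lists. Of 21 interferon gamma response genes 8 rose and 2 fell (median 0.46): the GTPases Iigp1 by 2.45, Gbp6 by 1.97 and Gbp2 by 1.27 and the chemokine gene Cxcl10 by 1.76, with Ubd falling by 3.40. Cxcl9 rose by 1.40, a call lost without any 1 of 4 arrays (4T1 replicate 1 or 3, spleen replicate 1 or 2). The Ifng gene itself read 2.85, 2.76 and 2.78 in the 4T1 arrays and 4.21, 3.39 and 4.11 in the spleen arrays, near the bottom of the scale in both groups, and its fall of 1.11 was lost without spleen replicate 1. Of 26 type I interferon-stimulated genes 1 rose and 4 fell (median -0.27), and without spleen replicate 1 the falls numbered 2. Oasl2 rose by 1.15, a call lost without spleen replicate 3, and Oas3, a synthetase of the same family, fell by 1.47.

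Proliferation genes rose in 16 of 35 and fell in 2 (median 0.95). Cdkn1a, the cell cycle inhibitor p21, read 10.36, 10.76 and 10.31 in the 4T1 arrays and 6.71, 6.54 and 6.69 in the spleen arrays and rose further than any other member (3.83 ± 0.17). Genes needed for division rose by less, Cdk1 by 1.94, Mcm6 by 1.59 and Birc5 by 1.45, and Mki67, the proliferation antigen Ki-67, changed by 0.88 ± 0.25 without passing. The inhibitor Cdkn1b fell by 1.19 on the probe set used, with another at 0.04. Stress genes of the integrated response rose in 8 of 27 and fell in 1 (median 0.57), chiefly amino acid genes: Cth by 2.61, Psat1 by 2.23, Slc7a11 by 2.13 and Asns by 1.41. Of 18 NRF2 antioxidant genes 2 rose and 4 fell, and of 7 genes of the NADPH oxidase, the source of the oxidative burst, 2 fell, the subunit Rac2 by 1.06 and Hvcn1 by 1.34, a proton channel that serves the oxidase and that B cells also carry; without 4T1 replicate 3 or spleen replicate 1 that number was 1, Rac2 dropping out.

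Among 36 myeloid transcription factors 9 rose and 7 fell (median 0.25). Atf3, an early response factor, read 11, 10.90 and 10.52 in the 4T1 arrays and 7.60, 7.54 and 7.77 in the spleen arrays, a change of 3.17 ± 0.26. The early genes Egr1 and Jun also rose, by 2.30 and 2.03. Cebpb, needed for emergency granulopoiesis, rose by 1.09, a call lost without 4T1 replicate 2 and under median centring. Falls included Cebpd by 1.66 and Gfi1 by 1.58, factors of granulocytes; Gfi1 lost its call without 4T1 replicate 1. Zeb2 changed by 0.51 ± 0.31 on the probe set used, and its 5 probe sets ran from 0.51 to -0.50. Pattern recognition and Fc receptors had 5 rises and 2 falls among 21 (median -0.01): Cd14, a coreceptor for bacterial lipopolysaccharide, rose by 2.11 and the inhibitory Fc receptor Fcgr2b by 1.75. Integrins and adhesion genes fell in 7 of 19 and rose in 1: Itga4, a chain that binds Vcam1, fell by 2.69, and Itga6, a laminin receptor chain that epithelia also carry, rose by 2.17.

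**Figure D3:**
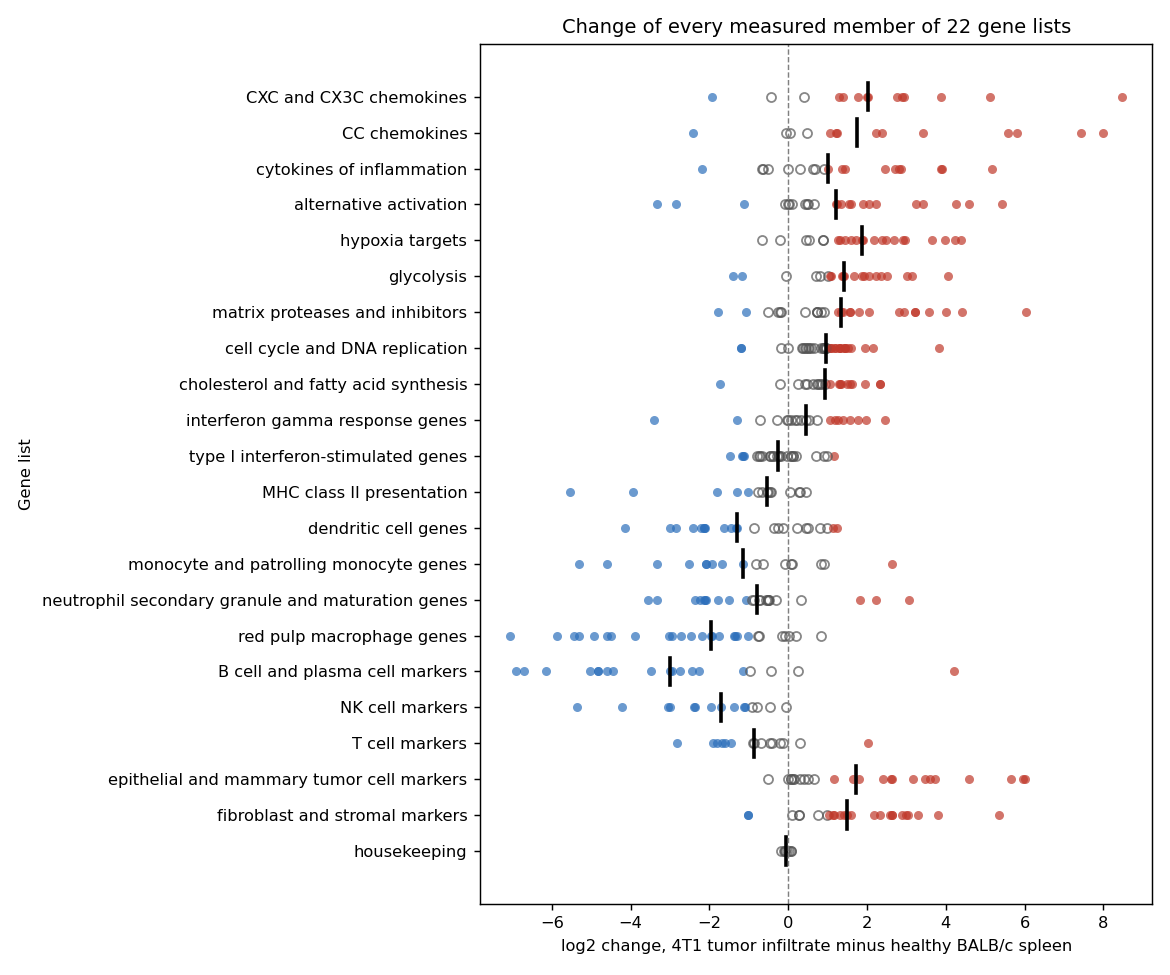
Log2 change of every measured member of 22 gene lists, 4T1 infiltrate minus healthy BALB/c spleen, 1 point per gene (red rose, blue fell, open did not pass; the bar is the median). Hypoxia targets, glycolysis and chemokines lie mostly to the right (medians 1.88, 1.42, 2.02 and 1.74) and red pulp macrophage genes to the left (median -1.97).

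The 4T1 cells were next set against CD11b+ cells of another BALB/c tumor, C26-GM, a colon carcinoma made to secrete GM-CSF. The comparison asks how the infiltrates of these tumors differ within 1 strain and 1 tissue. At the same thresholds 2338 of 18194 genes differed (12.9%), 1629 higher in 4T1 (8.95%) and 709 lower (3.9%), with a median of -0.11 over all genes. The split depends on scaling: 69.7% of differences were higher in 4T1 as deposited, 59.3% after housekeeping centring, 60.1% after renewed quantile normalization and 55.2% after median centring. C26-GM replicate 3 had poorer RNA, its beta-actin 3' probe set exceeding the 5' one by 2.42 (log2), against 0.01 to 0.41 in the other arrays of the 6 groups used. Without it 1491 genes were higher and 790 lower. Xist, expressed from the inactive X chromosome, read 10.51 on average in 4T1 and 5.70 in C26-GM, and the Y-linked gene Eif2s3y 2.26 and 8.85. In these genes 4T1 resembled the healthy spleen (10.92 and 2.34), and the labels give no sex; the part of sex in this comparison was not tested.

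Genes known from macrophages and monocytes differed from C26-GM both ways. Monocyte genes were higher in 4T1 in 5 of 17 cases and lower in 3 (median -0.06), Chil3 among the lower (-5.49 ± 0.23). Lipid-associated macrophage genes were higher in 6 of 21 and lower in 4 (median 0.0). The single genes named next in this paragraph were all higher in 4T1. Cx3cr1, the fractalkine receptor, averaged 10.54 ± 0.21 (SD, n = 3) in 4T1 and 5.32 ± 0.33 in C26-GM, a difference of 5.23 ± 0.23. C1qb averaged 12.49 ± 0.13 and 8.47 ± 0.39, and the differences of the other C1q chains were 3.66 for C1qa and 3.38 for C1qc. The complement receptor Vsig4 differed by 3.23 ± 0.43, the hemoglobin scavenger Cd163 by 2.71 ± 0.44 and Apoe, a lipid carrier, by 3.30 ± 0.31. Of 18 complement genes 8 were higher and 1 lower, and of 27 red pulp genes 8 were higher and 2 lower, Vcam1 by the most (4.30 ± 0.34). Cd83, an activation marker of dendritic and B cells, averaged 10.37 ± 0.34 in 4T1, 9.92 ± 0.20 in healthy spleen and 4.74 ± 0.38 in C26-GM, so that C26-GM was the group that stood apart.

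Monocyte attractants were higher in 4T1, with differences of 4.07 for Ccl12, 4.02 for Ccl7, 3.86 for Ccl8 and 3.03 for Ccl2, and Cxcl3 was lower by 1.33. Hypoxia targets were higher in 8 of 23 cases and lower in none (median 0.71), among them Plod2 (3.72 ± 0.31) and the angiogenic factor Vegfa (2.27 ± 0.38). Growth factors were higher in 11 of 22 cases and lower in 2, Pdgfc higher by 4.13. Interferon gamma response genes were higher in 8 of 21 and lower in 1, Iigp1 by 4.60; without C26-GM replicate 1 the number was 5. Arg1 averaged 12.75 ± 0.07 and 10.62 ± 1.08, a difference of 2.14 ± 0.35. The C26-GM arrays spread widely here, and the SE, pooled over all 10 groups, understates that spread. Ada differed by 3.97 ± 0.37. Epithelial markers were higher in 12 of 24 cases and stromal markers in 15 of 25, with summed levels of 12.47 to 13.11 against 10.66 to 10.96 and of 13.58 to 13.83 against 12.71 to 12.99; their part in these differences was not tested.

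Neutrophil maturation genes included many that were lower in 4T1 than in C26-GM, 12 of 24 with 4 higher (median -1.29), and the summed level was 15.29 to 15.74 against 16.62 to 16.99. Chil3 averaged 7.37 ± 0.34 in 4T1 and 12.86 ± 0.25 in C26-GM, a difference of -5.49 ± 0.23. Mmp8 differed by -3.76 ± 0.31, the neutrophil adhesion protein Cd177 by -3.31 ± 0.32 and Cxcr2 by -2.64 ± 0.36. Beside Chil3 and the Y-linked Eif2s3y (-6.58 ± 0.14) the largest differences downward, predicted and unnamed transcripts left out, were -6.88 ± 0.48 for Bcl2l15, a BCL-2 relative, -5.03 ± 0.37 for the secreted protein Crispld2 and -5.0 ± 0.36 for the ectonucleotidase Entpd3. Counts per list with C26-GM replicate 3 left out were 8 higher for hypoxia targets, 8 for complement and 13 lower for neutrophil genes.

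Whether the change from spleen to tumor was the same in 4T1 as in the C57BL/6 tumors was tested as a difference of differences, each tumor against the healthy spleen of its own strain. Against EL-4, a lymphoma, 982 of 18194 genes had an effect that differed (5.4%), 433 higher in 4T1 (2.38%) and 549 lower (3.02%). Here too scaling turned the split, from 44.1% higher as deposited to 60.4% after housekeeping centring and 52.0% after median centring. Against MCA203, a fibrosarcoma, 799 differed (4.39%), 501 higher (2.75%) and 298 lower (1.64%). Strain, tumor line and spleen reference change together in these comparisons and cannot be told apart. T cell markers summed to 11.61 to 11.89 in EL-4 and 11.30 to 11.81 in MCA203 against 9.69 to 9.99 in 4T1, and NK markers to 12.54 to 12.85 and 12.93 to 13.56 against 8.74 to 8.87; their part in the results below was not tested.

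Neutrophil genes kept a far higher level in 4T1 than in either C57BL/6 tumor. The effect was higher in 4T1 for 14 of 24 maturation genes against EL-4 with 2 lower (median 2.36), and for 19 of 24 against MCA203 with none lower (median 3.30). Ngp averaged 11.10 ± 0.51 in 4T1 and 13.23 ± 0.15 in its spleen reference, but 5.94 ± 0.83 in EL-4 and 6.07 ± 0.65 in MCA203 against 13.37 ± 0.18 in C57BL/6 spleen. Its effect therefore differed by 5.31 ± 0.54 from EL-4 and 5.18 ± 0.54 from MCA203. S100a8 differed by 3.85 ± 0.19 and 3.60 ± 0.19, and S100a9 by 4.32 ± 0.21 and 3.86 ± 0.21. Lcn2 differed by 3.78 ± 0.63 and 6.44 ± 0.63. Its EL-4 arrays spread widely, with a mean of 7.73 ± 1.72 (SD). The SE, pooled over all 10 groups, understates that spread for the difference from EL-4. Arg2, which neutrophils also carry, differed by 1.96 ± 0.41 and 3.08 ± 0.41.

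Moxd1, Dmp1 and Pdgfrl were high in 4T1 and near the bottom of the scale in the other groups plotted. Nt5e and Rnase2a, also given here, were not low in C26-GM. Moxd1 averaged 9.62 ± 0.54 in 4T1 and between 3.19 and 3.97 in the other 5 groups. Dmp1, a matrix protein of bone and dentin, averaged 8.12 ± 0.24 against 2.47 to 2.74. Pdgfrl, a receptor-like protein without a kinase, averaged 8.37 ± 0.41 against 3.58 to 3.95. Nt5e, at 10.10 ± 0.06, was followed by C26-GM at 7.80 ± 0.26 and EL-4 at 6.01 ± 0.41. The effect of Moxd1 differed by 5.49 ± 0.44 and 5.91 ± 0.44 from EL-4 and MCA203, that of Dmp1 by 5.45 ± 0.22 and 5.28 ± 0.22, and that of Nt5e by 4.96 ± 0.47 and 5.69 ± 0.47. Other probe sets of Nt5e gave smaller differences, down to 0.32 and 0.11. Pdgfrl differed by 4.98 ± 0.30 from EL-4. Rnase2a averaged 9.40 ± 0.33 in 4T1, 10.65 ± 0.92 in C26-GM and 3.82 ± 0.70 in MCA203, a difference of 5.22 ± 0.65 from the MCA203 effect.

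**Figure D4:**
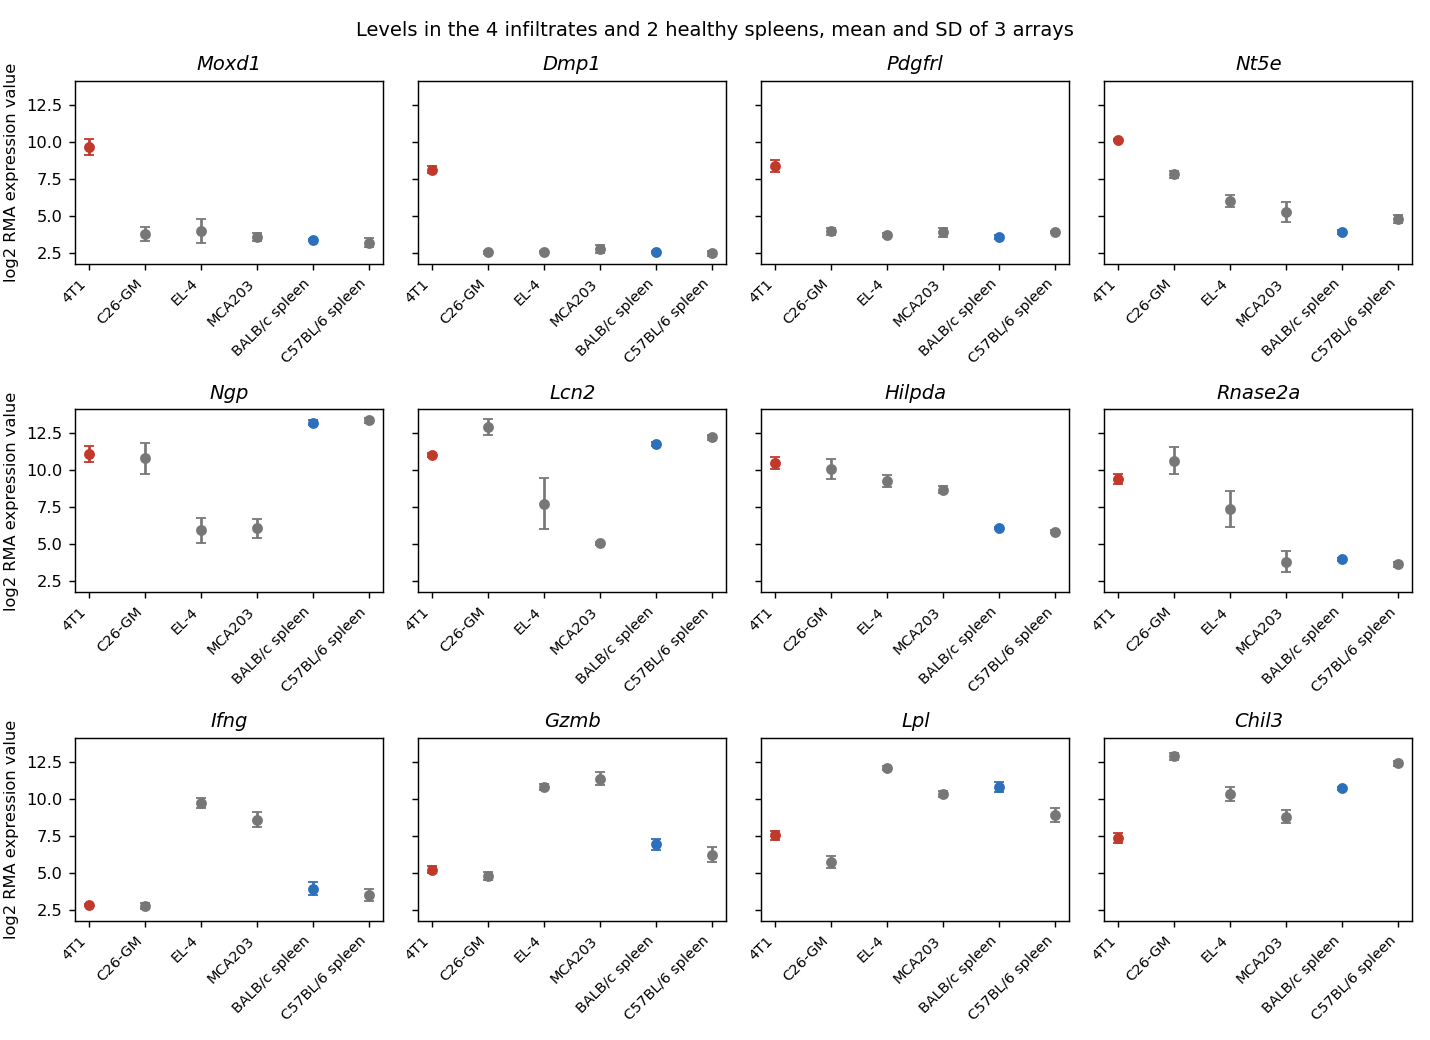
Mean log2 RMA level with SD (n = 3 arrays) of 12 genes in 4 tumor infiltrates and 2 healthy spleens. Moxd1, Dmp1 and Pdgfrl are high in 4T1 alone (9.62, 8.12 and 8.37), Ngp and Lcn2 are lower in EL-4 and MCA203 than in 4T1, and Ifng and Gzmb are higher in EL-4 and MCA203 than in 4T1.

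Cytokine and matrix protease genes included many with a larger effect in 4T1. Of 19 cytokines 7 were higher and 2 lower against EL-4, and 7 higher and 1 lower against MCA203. Il23a differed by 2.68 ± 0.21 and 2.64 ± 0.21, Il1a by 2.67 ± 0.25 and 3.52 ± 0.25, and Il6 by 4.39 ± 0.50 from MCA203. Of 27 matrix proteases and inhibitors 7 were higher and 3 lower against EL-4, and 8 higher and none lower against MCA203. Mmp3 and Plau differed by 2.74 and 3.20 from EL-4, and Mmp9, the gelatinase of neutrophil granules, by 4.05 ± 0.59 from MCA203. Hypoxia targets had a larger effect in 4T1 in 5 of 23 cases against EL-4 and 10 of 23 against MCA203, with none lower in either (medians 0.56 and 1.06); Egln3 differed by 3.18 ± 0.49 and Hilpda by 1.54 ± 0.36 from MCA203. Eno2 differed by 2.64 ± 0.34 and 3.71 ± 0.34. Slc7a2 differed by 3.68 ± 0.59 and Arg1 by 2.11 ± 0.49 from MCA203, while the Arg1 effect against EL-4 differed by 0.79 ± 0.49 and missed the test. Cholesterol genes were higher in 6 of 21 cases against EL-4, but 3 without 4T1 replicate 1, spleen replicate 2 or EL-4 replicate 2, and 2 without EL-4 replicate 3. Epithelial markers differed from EL-4 in 1 gene higher and 2 lower. EL-4 replicate 1 had an epithelial sum of 14.01 against 10.71 and 11.34 in the other arrays of its group, and without it 11 were higher and 1 lower.

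Most NK and T cell markers had a lower effect in 4T1 than in both other tumors. NK markers were lower in 12 of 15 cases against EL-4 and 14 of 15 against MCA203 (medians -3.02 and -3.91), and T cell markers in 11 and 10 of 15. Ifng averaged 2.80 ± 0.05 in 4T1, 9.71 ± 0.35 in EL-4 and 8.59 ± 0.52 in MCA203, and its effect differed by -7.34 ± 0.34 and -6.22 ± 0.34. Gzmb, a granule protease, averaged 5.21 ± 0.26, 10.79 ± 0.19 and 11.37 ± 0.44, and its effect differed by -6.31 ± 0.36 and -6.89 ± 0.36. Interferon gamma response genes were lower in 7 of 21 cases against EL-4 and 5 against MCA203, with none higher; Gbp2b differed by -3.37 ± 0.43 and -5.18 ± 0.43. Nos2, an interferon gamma target, differed by -2.41 ± 0.42 from EL-4. Type I interferon genes were lower in 1 of 26 cases against EL-4 (median -0.10) and in 7 of 26 against MCA203 (median -1.02), with none higher; against MCA203 Ifit3 differed by -2.06 and Irf7 by -1.85.

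Lipid and red pulp genes differed both ways. Lipid-associated macrophage genes had a higher effect in 4T1 in 3 of 21 cases and a lower one in 6 against EL-4, and 4 higher and 3 lower against MCA203. Lpl averaged 7.52 ± 0.33 in 4T1 and 10.78 ± 0.32 in its spleen reference, against 12.09 ± 0.13 in EL-4 and 8.90 ± 0.46 in C57BL/6 spleen, so it fell in 4T1 while the EL-4 level exceeded its reference. The difference of effects was -6.44 ± 0.31, and -4.67 ± 0.31 from MCA203. Pparg differed by -2.89 ± 0.54 and -3.78 ± 0.54, and Gpnmb, a glycoprotein of lipid-laden macrophages, by -5.42 ± 0.39 from EL-4. Of 27 red pulp genes 8 had a lower effect in 4T1 than in EL-4 and none higher, Cd5l by -4.85 and Spic by -2.39. Against MCA203, 4 red pulp genes were higher and 6 lower. Leaving out 1 array left 2 to 4 lipid genes higher against EL-4 and 2 to 4 red pulp genes higher against MCA203. Mycn, a MYC family gene, averaged 6.01 ± 0.21 in 4T1 and 12.07 ± 0.75 in EL-4, a difference of effects of -5.99 ± 0.41. Xcr1, the chemokine receptor of cross-presenting dendritic cells, differed by -4.52 ± 0.41 from MCA203.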

How the data were processed

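CD11b+ cells were profiled on Affymetrix MOE430 2.0 arrays, 3 per group, from total RNA taken with Trizol and a column clean-up, per the labels' protocols. The deposited table holds log2 RMA values, the authors' background-corrected, normalized and summarized signal, with RMA named in the submitters' processing notes; no source used here gives its version. RMA uses the perfect-match probes of all arrays together, so levels are relative and dim probe sets are compressed towards the floor.

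Probe sets were named through the platform annotation: 34958 had 1 symbol, 932 several and 9211 none, and 34897 of the first were found among RefSeq genes. Where a gene had several probe sets, the one brightest on average across the 30 arrays was used. All 10 groups were fitted together with limma 3.58.1 in R 4.3.3 (lmFit, eBayes, Benjamini-Hochberg over 18194 genes), and a call needed an adjusted p under 0.05 and at least 2-fold change. No low-value filter was applied. Named genes were the 10 largest rises and falls among called genes with no overlap between arrays (5 each way in the other comparisons), and members of 45 gene lists. Predicted and unnamed transcripts, such as symbols ending in Rik, were left out of these rankings. The comparison, members and lists were chosen with earlier results of these data known, so list counts are descriptions and no list was tested. The procedure was tested on simulated data. Tables and plots used Python 3.11.15, pandas 2.3.3 and matplotlib 3.10.9. The number of arrays limits the precision. Alternatives tried were 3 other scalings, array weights, a low-level filter, other probe set rules, other thresholds, a replicate block and leaving out each array.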

Additional observations from a re-analysis of the deposited data

Results flagged for a closer look

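The effect of the tumor differed between 4T1 and EL-4 for 982 genes and between 4T1 and MCA203 for 799 genes, by limma's test of the difference of the effects themselves. These were picked out because the same contrast, tumor against healthy spleen, gave different sizes in different tumors. The genes ranked below were chosen with predicted and unnamed transcripts left out.

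Against EL-4 the largest positive differences (log2, 4T1 effect minus EL-4 effect) were 5.49 for Moxd1, 5.45 for Dmp1, 5.31 for Ngp, 4.98 for Pdgfrl and 4.96 for Nt5e. The largest negative ones were -7.34 for Ifng, -6.62 for Gzma, -6.44 for Lpl, -6.31 for Gzmb and -5.99 for Mycn.

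Against MCA203 the largest positive differences were 6.44 for Lcn2, 5.91 for Moxd1, 5.69 for Nt5e, 5.28 for Dmp1 and 5.22 for Rnase2a. The largest negative ones were -6.89 for Gzmb, -6.22 for Ifng, -6.11 for Nkg7, a killer cell granule gene, -5.88 for Klrc1, an NK receptor, and -5.87 for Gzmd, a granzyme. Gzmd was near the bottom of the scale in every group but MCA203, where it averaged 9.07.

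Probe sets with no gene symbol or with several were outside the comparison of genes. By the same thresholds 768 of these 10092 changed between 4T1 infiltrate and healthy spleen (7.61%), 218 higher and 550 lower.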

How the results depend on the processing

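Only 3 arrays stand on each side, tumor and organ differ together, and other cell types, chiefly epithelial, stromal and B cells, differ between the groups. RMA values give no count or depth, and dim probe sets near the floor understate changes. One probe set stands for each gene, and its other probe sets can differ.

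For the comparison with healthy spleen, leaving out 1 array gave 2142 to 2325 called genes, and the low-level filter, array weights, a trended variance prior, an adjusted p under 0.01 and the fit to the compared groups alone each stayed within 1.5 times of 2231. Without a minimum fold 4613 genes passed, with every probe set tested 4051, and in a test against a 2-fold change itself 817. For 4T1 against C26-GM the corresponding values were 2140 to 2577, 6147, 4448 and 644. For the difference from the EL-4 effect they were 828 to 1035 on leaving out 1 array, 1638 with every probe set and 174 against a 2-fold change, and for MCA203 660 to 778, 1287 and 175. Array weights gave 1337 and 1092 there, and their estimation stopped before full convergence.

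Replicate numbers did not pair the samples: correlations of deviations between same-numbered 4T1 and spleen arrays were -0.059, 0.044 and -0.012. With the number as a replicate block 2242, 2342, 1185 and 1065 genes were called in the 4 comparisons, and none of the 516 genes followed lost its call.

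Across 3576 values with 1 array left out, 67 calls of single genes were lost and none turned. Housekeeping centring lost 7 of 516 calls, median centring 15, renewed quantile normalization 6 and the mean of all probe sets 38. The test against a 2-fold change itself lost 191. Testing each probe set by itself lost 87, and in 13 genes the probe set farthest from the reported direction lay at or past 0: Acly -0.01, Aurka -0.14, Car12 -0.11, Cdkn1b 0.04, Cxcl12 0.01, Dcn -0.03, Ighm 0.23, Marchf1 0.00, Nrp1 -0.08, Slc7a1 -0.10, Socs2 -0.12, Sparc -0.04 and Vcan -0.17. Why they differ was not tested.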
